A study of Rattus norvegicus with 98 samples.

Results

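Acetylation of lysine 27 of histone H3 (H3K27ac) was compared between fluoxetine-treated (FT) and vehicle-treated (Sham) rats in the ventral dentate gyrus (venDG). The comparison rests on the peak lists whose titles name venDG, which are 4 of the 94 lists of the series: Sham replicates 1 and 2 and FT replicates 1 and 2. The animals were male Long-Evans rats that were 2 months old when treatment began. The FT group drank water with fluoxetine at 18 mg/kg per day for 6 weeks, and the Sham group drank water alone. Tissue punches of several animals were pooled for each replicate, so a list describes a pool and not an animal, and each p measures only the spread between pools. In such bulk tissue, a change in the share of a cell type and a change in acetylation within cells cannot be told apart.

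The dentate gyrus is the entry station of the hippocampal circuit, built mainly of densely packed granule neurons, and it is among the few places where neurons are still born in adult rodents. Its ventral pole is tied to emotion and stress responses and its dorsal pole to spatial memory. Fluoxetine blocks the serotonin transporter, and H3K27ac marks promoters and enhancers that are in use. A peak is a stretch of genome where chromatin immunoprecipitation followed by sequencing (ChIP-seq) with an antibody to this mark gave more reads than the background.

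Depth is unknown because the lists hold no read counts, and gene names are not used here because no annotation of the Rn5 assembly was given. The region label was therefore checked by similarity between lists, not by marker genes. Similarity was the Jaccard index, the number of 1 kb windows occupied in both lists over the number occupied in either, with a window called occupied when peaks covered at least 50% of it. With every list cut to at most 34769 peaks, the list nearest to each venDG list among the other lists of the series was another venDG list, at 0.706 for Sham 1, 0.754 for Sham 2, 0.653 for FT 1 and 0.754 for FT 2. Not every venDG list came before all lists of other regions: FT 1 was only the 7th nearest list to Sham 1, at 0.646, behind lists of BLA, CMA and dorDG, and the 6th nearest to FT 2. The nearest list from outside the dentate gyrus stood at 0.657 for Sham 1, 0.633 for Sham 2, 0.585 for FT 1 and 0.632 for FT 2. Sham 1 stood closer than its 3 partners to the rest of the brain, with a median Jaccard index of 0.558 to lists from outside the dentate gyrus against 0.500 for Sham 2, 0.468 for FT 1 and 0.514 for FT 2. Among the other regions, the first Sham list of HB stood apart, with a Jaccard index of 0.00520 or less to each venDG list.

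Whether fluoxetine changed the extent of acetylated chromatin was asked first, and the FT lists lay on both sides of the Sham lists. The number of peaks was 43874 in Sham 1, 45082 in Sham 2, 34769 in FT 1 and 48438 in FT 2. FT 1 thus held the fewest peaks of the 4 and FT 2 the most, and FT 1 had the second shortest list of the 47 FT lists of the series. The mean was 44478 ± 854 peaks in Sham (SD, n = 2) and 41604 ± 9665 in FT (SD, n = 2). The log2 ratio of FT to Sham was -0.10 (exact permutation test, two-sided, p = 1), and without FT 1 it was 0.12. With 2 lists against 2 there are 3 arrangements of the lists, so no p of this test can fall below 0.33. Within replicate numbers, which mark libraries processed in parallel, the log2 ratio was -0.34 in replicate 1 and 0.10 in replicate 2.

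The peaks covered 67.6 Mb of the genome in Sham 1, 71.1 Mb in Sham 2, 51.0 Mb in FT 1 and 79.4 Mb in FT 2. The order of the lists was the same as for peak number, and the FT values again enclosed the Sham values. The log2 ratio of the means was -0.09 (exact permutation test, two-sided, p = 1), and it turned to 0.20 without FT 1 and became -0.44 without FT 2. The ratio by replicate number was larger in size, at -0.34 for replicate 1 over replicate 2. No effect of treatment on covered length was detectable beyond the spread of the 2 FT pools.

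**Figure D1:**
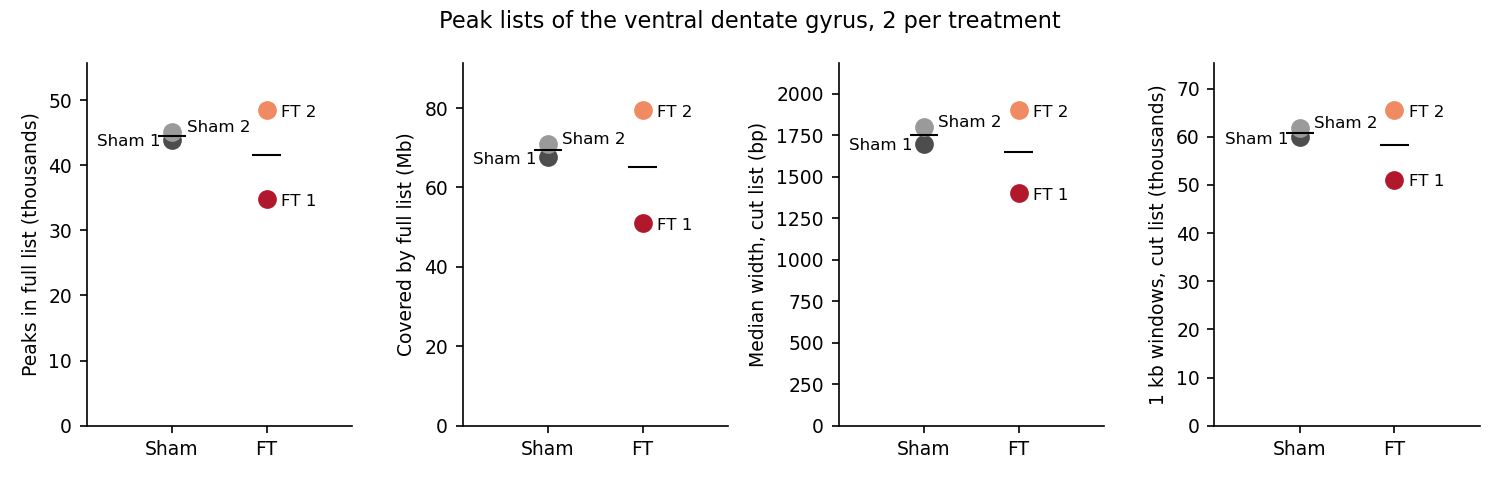
Peaks in the full list, bases covered by the full list, median peak width in lists cut to an equal number of peaks, and 1 kb windows occupied in cut lists, for each venDG library, with the mean of each treatment as a line (all axes start at 0). In all 4 plots FT 1 is the lowest point and FT 2 the highest, with Sham 1 and Sham 2 between them.

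Since a longer list holds more weak peaks, the lists were also cut to the 34769 peaks with the highest maxScore, the peak caller's own score, which is the length of the FT 1 list. The weakest peak kept then had a -log10 p of 5.61 in Sham 1, 5.78 in Sham 2, 4 in FT 1 and 6.88 in FT 2. Peak width, the length of genome over which a site is acetylated, still differed between the lists. The median width was 1700 bp in Sham 1, 1800 bp in Sham 2, 1400 bp in FT 1 and 1900 bp in FT 2. The mean of the medians was 1750 ± 70.7 bp in Sham (SD, n = 2) and 1650 ± 354 bp in FT (SD, n = 2), a log2 ratio of -0.08 (exact permutation test, two-sided, p = 1).

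Among the cut lists, FT 1, which the cut left whole, held the most narrow peaks. Peaks of 500 bp or less made up 2.45% of its cut list, 0.129% of that of Sham 1, 0.109% of that of Sham 2 and 0.0403% of that of FT 2. The gap was much smaller in the full lists, at 2.45% in FT 1, 2.05% in Sham 1, 1.49% in Sham 2 and 1.03% in FT 2. There Sham 1 held 900 such peaks and FT 1 851. At the other end, peaks of 3 kb or more numbered 504 in Sham 1, 563 in Sham 2, 255 in FT 1 and 747 in FT 2. FT 1 had the narrowest peaks and FT 2 the broadest, so the treatment groups overlapped in width at both ends. Without FT 1 the log2 ratio of median widths was 0.12, and without FT 2 it was -0.32.

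**Figure D2:**
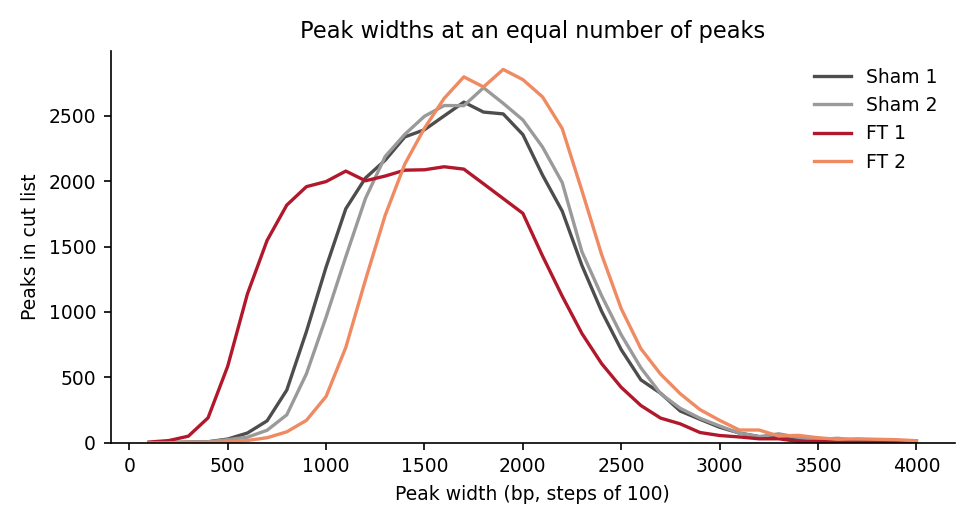
Number of peaks (y axis) by peak width in bp (x axis, steps of 100 bp) in the 4 venDG lists cut to an equal number of peaks. The FT 1 curve begins at narrower widths than the others, with a median of 1400 bp, and the FT 2 curve lies farthest to the right, with a median of 1900 bp.

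Widths were then compared at the same sites. Peaks of the 4 full lists that overlapped were joined into elements, and 29497 elements held exactly 1 peak in each list. At these sites the median width was 1800 bp in Sham 1, 1800 bp in Sham 2, 1600 bp in FT 1 and 1900 bp in FT 2. The median difference of FT minus Sham was -50 bp, against -200 bp for replicate 1 minus replicate 2 and 150 bp for the crossed arrangement (Sham 1 and FT 2 minus Sham 2 and FT 1). In 346 of these elements (1.17%), both FT peaks were wider than both Sham peaks by at least 200 bp. The reverse held in 517 elements (1.75%). By the same rule, 5665 elements separated the replicate numbers and 2847 separated the crossed pairs, so shared sites differed in width least often by treatment.

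Occupancy of the genome was compared in 1 kb windows. In the full lists, 94079 windows were occupied in at least 1 library and 43097 of them (45.8%) in all 4. Single lists occupied 67531 windows in Sham 1, 71087 in Sham 2, 50997 in FT 1 and 79307 in FT 2. A window separated the treatments when both libraries of one treatment occupied it and neither library of the other did. In the full lists, 1134 windows (1.21% of the occupied windows) were found in both FT and in no Sham list, and 1806 (1.92%) in both Sham and in no FT list.

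These 2940 windows were fewer than those that separated the libraries in the other ways. By replicate number, 7180 windows separated the libraries, of which 6633 were occupied in replicate 2 only. In the crossed arrangement, 4330 windows did so, of which 3947 were occupied in Sham 1 and FT 2 only. The log2 ratio of the treatment count to the mean of the other 2 counts was -0.97 (exact permutation test, one-sided, p = 1). The large counts were those of the pairs that lacked FT 1: 11249 windows were occupied in every list but FT 1, against 2640 for Sham 1, 1319 for Sham 2 and 343 for FT 2.

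Cutting the lists to an equal number of peaks narrowed these gaps and kept the order. Of 81011 occupied windows, 40503 (50%) were occupied in all 4 cut lists. Windows found in both FT and in no Sham list numbered 1209 (1.49%), and those found in both Sham and in no FT list numbered 1795 (2.22%). The treatment thus separated 3004 windows, replicate number 5076 and the crossed arrangement 3328, a log2 ratio of -0.48 (exact permutation test, one-sided, p = 1). Without FT 2 this ratio was 0.31, with the 2 Sham lists compared with FT 1 alone.

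The balance of the directions leaned to Sham, with a log2 ratio of -0.57 for windows of FT over windows of Sham in the cut lists (exact permutation test, two-sided, p = 1). The lean was larger between replicate numbers, at 890 windows of replicate 1 and 4186 of replicate 2, and between the crossed pairs, at 2659 windows of Sham 1 and FT 2 and 669 of Sham 2 and FT 1. Without FT 1 the balance turned to 1.46, with 6692 windows in FT 2 and neither Sham list against 2435 in both Sham lists and not FT 2.

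**Figure D3:**
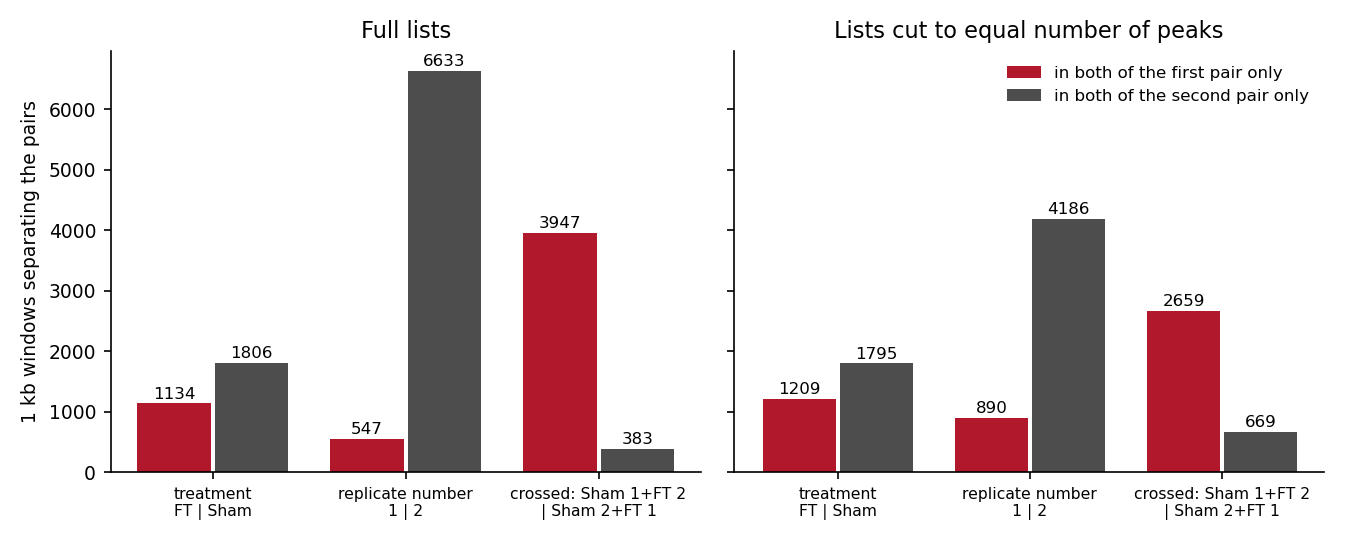
Number of 1 kb windows that separate the 4 venDG libraries into 2 pairs (y axis), by treatment, by replicate number and in the crossed arrangement, for full lists (left) and for lists cut to an equal number of peaks (right). Bars give each direction. The 3004 windows by treatment in cut lists are fewer than the 5076 by replicate number and the 3328 of the crossed arrangement.

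Jaccard indices of the cut lists gave the same picture pair by pair. The same-treatment pairs stood at 0.703 for Sham 1 with Sham 2 and 0.650 for FT 1 with FT 2. The pairs of unlike treatment stood at 0.646 for Sham 1 with FT 1, 0.653 for Sham 2 with FT 1, 0.706 for Sham 1 with FT 2 and 0.754 for Sham 2 with FT 2. FT 2 was thus nearer to either Sham list than to FT 1, and its Jaccard indices with 3 of the dorsal lists (0.678, 0.673 and 0.656) were also above that with FT 1. Same-treatment pairs were less similar on average than pairs of unlike treatment, with a difference of -0.013 (exact permutation test, one-sided, p = 1), and 0.054 more similar without FT 2.

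Most windows that separated the treatments did not adjoin a window shared by all 4 lists. Of the 1209 FT windows, 310 (25.6%, 95% Wilson interval 23.3 to 28.2%) directly adjoined a window occupied in all 4 cut lists. Of the 1795 Sham windows, 375 (20.9%, 19.1 to 22.8%) did so. These intervals treat windows as independent, which neighbouring windows are not. The median distance to the nearest window shared by all 4 lists was 10 kb for FT windows and 12 kb for Sham windows. Over both directions, 22.8% of the windows separating by treatment adjoined a shared window, against 39.1% by replicate number and 36.6% in the crossed arrangement. These shares moved with single libraries: that of FT windows was 38.7% without FT 1 and 14.0% without FT 2, and that of Sham windows was 50.3% without FT 2. Joining adjacent windows gave 1149 FT loci, of which 1089 (94.8%) were 1 window long, and 1613 Sham loci, of which 1432 (88.8%) were 1 window long. Over both directions 91.3% of the loci were 1 window long, against 91.9% by replicate number and 93.1% in the crossed arrangement, so their length was like that of the reference arrangements. The longest FT locus spanned 2 kb and the longest Sham locus 3 kb.

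Few of these windows were free of acetylation in the opposing pair. A peak of at least 1 opposing full list reached into 1071 of the FT windows (88.6%) and 1629 of the Sham windows (90.8%). An opposing full list occupied 44.0% of the FT windows and 50% of the Sham windows, so those windows separated the treatments only after the lists were cut. No opposing peak touched 138 FT windows (11.4%) and 166 Sham windows (9.25%). Together these were 304 windows by treatment, against 783 by replicate number and 315 in the crossed arrangement. The peaks that carried the changed windows ranked below the middle of their own lists, with a median maxScore percentile of 37.6 for FT windows and 39.5 for Sham windows, against 75.9 for windows occupied in all 4 lists. Windows of the replicate and crossed pairs also ranked below the middle, at 30.8 to 49.2.

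The 8 longest loci in each direction were examined one by one, with the share of each locus that peaks of the full lists covered. The loci were chosen by occupancy of the cut lists, so contrasts in coverage follow in part from that choice. All coordinates count from 1 on Rn5. In FT, the first locus by signal was chr1:184040001-184042000, where peaks covered 0% in Sham 1, 74.6% in Sham 2, 79.1% in FT 1 and 89.95% in FT 2. Its Norm-tag-count, the peak caller's normalised tag count rounded to a whole number, was 6 in Sham 2, 5 in FT 1 and 8 in FT 2, and Sham 1 had no peak there. The full list of Sham 2 thus covered this locus nearly as far as FT 1 did, with a -log10 p of 5.69 against 6.5 in FT 1 and 18.8 in FT 2, and Sham 2 lost the peak when the lists were cut. Lists of 4 other regions occupied it (CMA, InsularCortex, PAG and dorDG, as the labels name them).

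A clearer contrast was seen at chr4:187410001-187412000, which peaks covered by 23.8% in Sham 1, 16.0% in Sham 2, 79.6% in FT 1 and 89.0% in FT 2. All 4 libraries had a peak there, of 2100, 1900, 2800 and 3400 bp in that order, and the locus adjoined a window shared by all 4. The peak was wider in both FT lists than in either Sham list. Its Norm-tag-count was 4 in Sham 1, 5 in Sham 2, 4 in FT 1 and 7 in FT 2, so the tag counts of the groups overlapped where the coverage did not. Lists of 19 other regions occupied it.

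At chr4:207936001-207938000, coverage was 40.0% in Sham 1, 19.0% in Sham 2, 80.4% in FT 1 and 100% in FT 2. The peak was 800 bp wide in Sham 1, 1100 bp in Sham 2 and 2400 bp in each FT list. The groups did not overlap in coverage, the basis on which the locus was chosen, or in width, which is tied to coverage. They did overlap in Norm-tag-count, which was 5 in each Sham list, 4 in FT 1 and 7 in FT 2. This locus was restricted to 6 other regions, the 4 cortical labels CGC, ILC, InsularCortex and PLC together with CMA and dorDG. A further locus of this kind, chr8:120765001-120767000, was covered by 0% in Sham 1, 75.2% in Sham 2 and 100% in both FT lists, and was the only one of the 8 that no dorDG list occupied.

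The remaining FT loci varied in which Sham list came closest to FT. At chr8:51725001-51727000 the Sham 2 list covered 100% of the locus and Sham 1 16.4%, against 95% and 100% in the FT lists. At chr12:42574001-42576000 coverage was 0% in Sham 1, 55% in Sham 2, 65% in FT 1 and 75% in FT 2, and at chr18:17770001-17772000 it was 0%, 55%, 70% and 76.3%. At chr13:49763001-49765000 it was 50%, 35%, 60% and 79.6%. In all, Sham 1 had no peak at 4 of the 8 FT loci and Sham 2 had a peak at all 8, and an opposing full list covered at least 50% of the locus at 6 of the 8.

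Among the Sham loci, the only one 3 windows long was chr17:91684001-91687000. Peaks covered 70.0% of it in Sham 1, 70.0% in Sham 2, 26.7% in FT 1 and 63.3% in FT 2, so FT 2 came close to the Sham lists. The Norm-tag-count was 4 in both Sham lists, 3 in FT 1 and 4 in FT 2. Lists of 22 other regions occupied it.

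The cleanest loss was chr10:103070001-103072000. A peak of 1500 bp covered 75% of it in each Sham list, with a Norm-tag-count of 5 in both and a -log10 p of 10.9 in Sham 1 and 6.38 in Sham 2, and neither FT list held a peak there. It was the only one of the 16 loci with no peak at all in the opposing pair. It was occupied in 14 other regions, by 19 FT lists and 19 Sham lists.

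Strong peaks of another shape were found at chr20:5490001-5492000, which was covered fully in both Sham lists by peaks of 5400 bp in Sham 1 and 2600 bp in Sham 2. FT 1 had no peak there, and FT 2 had 2 shorter peaks that covered 51.0%. The Norm-tag-count was 9 in Sham 1, Sham 2 and FT 2 alike. At chr3:35143001-35145000, coverage was 77.8% in Sham 1, 89.9% in Sham 2, 14.6% in FT 1 and 19.8% in FT 2, although FT 2 held the highest tag count there, 12 against 10 and 9 in Sham and 8 in FT 1. The peak of FT 2 was 3100 bp wide and lay mostly outside the locus, so coverage and tag count ordered the lists differently here.

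At chr6:135788001-135790000, which lists of all 24 other regions occupied, coverage was 75% in Sham 1, 100% in Sham 2, 24.8% in FT 1 and 45.0% in FT 2. The tag count there was 8, 7, 6 and 10 in the same order. The other loci were lost from FT 1 alone: FT 2 still covered 59.8% of chr3:169598001-169600000, 94.8% of chr3:16070001-16072000 and 70.0% of chr14:11137001-11139000, while FT 1 had no peak at any of them. Over the 8 Sham loci, FT 1 had no peak at 5 and FT 2 at 1.

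**Figure D4:**
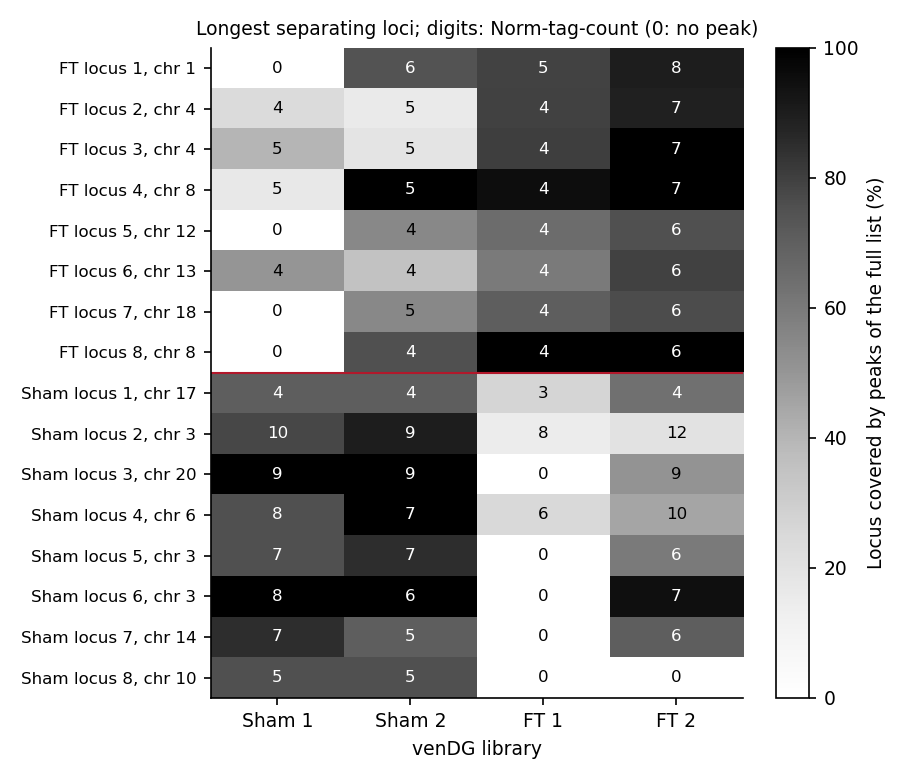
Share of each of the 16 longest separating loci that peaks of the full lists cover (grey scale, %), in the 4 venDG libraries (columns), with the Norm-tag-count as digits and 0 where no peak is listed. Rows above the line were occupied in both FT cut lists and no Sham cut list. Pale cells fall mostly in Sham 1 above the line and in FT 1 below it.

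Signal strength was compared at the 29763 elements with a peak in all 4 full lists. Norm-tag-counts are small whole numbers, with a median of 4 in every venDG list and a highest value of 34 in Sham 1, 27 in Sham 2, 25 in FT 1 and 32 in FT 2. Each element was therefore ranked by its percentile within its own list. The rank order of elements was similar in all pairs, with Spearman's rho from 0.872 (Sham 1 with FT 1) to 0.932 (Sham 2 with FT 2) over elements that share peak calls and are not independent. FT 1 with FT 2 stood at 0.900 and Sham 1 with Sham 2 at 0.887.

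An element was called shifted when both lists of a pair ranked it above both of the other pair and the means differed by at least 10 percentile points. Both FT lists ranked 2878 elements higher (9.67% of those compared), and both Sham lists ranked 3007 higher (10.1%). Together 5885 elements shifted by treatment, 7335 by replicate number and 3551 in the crossed arrangement. The log2 ratio of the treatment count to the mean of the others was 0.11 (exact permutation test, one-sided, p = 0.667). The values come in steps of 1, so many elements share a percentile. In Sham 1, counts of 4 and 5 stood at percentiles 49.0 and 69.4, so 10 points can be less than 1 step. A count of 4 stood at percentile 54.7 in FT 1 and 36.7 in FT 2. At a limit of 20 points, 717 elements shifted by treatment and the ratio was -1.70. With the finer maxScore, ranked the same way, 3748 elements shifted by treatment, 7864 by replicate number and 4807 in the crossed arrangement, and the ratio was -0.76. The ratio by Norm-tag-count also fell below 0 without Sham 1 (-0.15), Sham 2 (-0.26) or FT 2 (-0.06).

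Elements were also tested for treatment one by one, and the count of calls depended on the scaling. The log2 of the highest Norm-tag-count plus 1 was quantile normalised and fitted with limma across all 29763 elements. At an adjusted p of at most 0.1 and a log2 difference of at least 0.32, 0 elements were higher in FT (0%) and 0 were higher in Sham (0%), with 2859 at an unadjusted p under 0.05 and a lowest Benjamini-Hochberg adjusted p of 0.396. The same fit also called 0 elements by replicate number and 0 in the crossed arrangement, with 3245 and 1425 elements at an unadjusted p under 0.05. The log2 difference of FT minus Sham on this scale had a 5th percentile of -0.23 and a 95th percentile of 0.19. Its median size was 0.0921, and the 2 Sham lists differed from each other by a median of 0.0805 and the 2 FT lists by 0.0862. The first value is a difference between means of 2 lists and the other values are differences between single lists. Single lists vary more than means, so these sizes are not directly comparable. In 2126 elements (7.14%) the 2 lists of each treatment held the same whole number, so the spread that the test uses is coarse. With median scaling in place of quantile normalisation, limma called 43 elements, all higher in FT, while the median of all elements moved to 0.13 (log2). Among the 14870 elements above the median tag count it called 2, both higher in Sham. The count also depended on single libraries: the fit called 200 elements without Sham 2, 68 without FT 1, 331 without FT 2 and 0 without Sham 1.

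The elements with the lowest p show what such differences amount to in the lists. The lowest p among elements above Sham in FT was that of chr10:1949007-1950213, with a Norm-tag-count of 2 in Sham 1, 2 in Sham 2, 3 in FT 1 and 4 in FT 2. Its peaks were 500, 600, 1100 and 1200 bp wide in the same order, so neither measure overlapped between the groups. The element was picked by its tag counts, so their separation largely follows from that choice. FT peaks wider by at least 200 bp were found in 1.17% of the elements with 1 peak in each list. At chr10:1949007-1950213 the log2 difference in tag count was 0.43 ± 0.0409 (SE), with a limma adjusted p of 0.396, and 22 other regions had a peak there. At chr17:12528302-12529701 and at chr4:210177722-210180325 the tag count was 5 in each Sham list, 6 in FT 1 and 8 in FT 2. The first of these had peaks in 10 other regions and the second in all 24. The other 3 elements named above Sham, chr12:24517007-24518006, chr13:20183762-20185008 and chr15:34458902-34459901, held 2 in each Sham list and 3 in each FT list.

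Among the elements below Sham in FT, chr15:106880102-106881501 held a Norm-tag-count of 7 in Sham 1, 7 in Sham 2, 4 in FT 1 and 6 in FT 2. The peak was 1300 bp wide in each Sham list, 300 bp in FT 1 and 1000 bp in FT 2, and the log2 difference was -0.47 ± 0.0404 (SE; limma adjusted p = 0.396). At chr4:194341822-194344381, among the strongest sites named here with a -log10 p at the upper limit of 200 in Sham 1, the tag count was 10 in Sham 1, 9 in Sham 2, 6 in FT 1 and 9 in FT 2, so FT 2 equalled Sham 2. The other 4 elements, chr14:79212821-79215014, chr15:45449102-45450901, chr15:48798502-48800601 and chr15:58849802-58851901, all held 5 in each Sham list, 3 in FT 1 and 4 in FT 2, and peaks were listed at each of them in all 24 other regions. In 6 of 6 elements of this direction FT 1 held the lowest tag count. These elements were picked for being lower in FT, and the share among all elements tested is not given here. Raw tag counts were also low across the FT 1 list, whereas the fit used quantile normalised values. In FT 1, 40.1% of all peaks held a count of 3 or less. The share was 35.5% in Sham 1, 34.7% in Sham 2 and 22.2% in FT 2.

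Nearly all windows that separated the treatments in venDG were active elsewhere in the brain. At least 2 of the 90 full lists from the 24 other regions occupied 1195 of the 1209 FT windows (98.8%, 95% Wilson interval 98.1 to 99.3%) and 1790 of the 1795 Sham windows (99.7%, 99.3 to 99.9%). Only 7 FT windows and 2 Sham windows were occupied in no other list. For comparison, the share was 98.9% for all windows occupied in any venDG cut list, 99.9% for windows of replicate 1, 98.4% for windows of replicate 2 and 95.6% for windows in a single venDG list. When the other lists were cut in the same way, the shares were 96.9% for FT windows and 99.4% for Sham windows, and without HB they were 98.8% and 99.7%.

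FT windows were active in fewer other regions than Sham windows, with a median of 10 regions (interquartile range 5 to 19) against 20 (15 to 23) and against 24 for windows occupied in all 4 venDG lists. The dorsal dentate gyrus (dorDG) shared the most FT windows, 1010 of 1209 (83.5%), and PVN the fewest (34.4%). PVN has only 1 FT and 1 Sham list against 2 of each in dorDG, and fewer lists give fewer chances to share a window. dorDG also shared the most of all windows occupied in any venDG list (90%), and 81.5 to 88.1% of the windows of the replicate and crossed pairs. Sham windows were shared most with CMA (87.8%, against 84.5% of all windows occupied in any venDG list) and least with PAG (41.2%, against 62.3%). PAG was also the region that shared the fewest of all venDG windows. Windows active in dorDG and in no other region numbered 75 among the FT windows (6.20%) and 11 among the Sham windows (0.613%). The share was 2.35% for windows occupied in any venDG list and 5.57% for windows in a single venDG list, near that of the FT windows.

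The same contrast appeared in each arrangement according to the presence of Sham 1. Windows of replicate 1 (Sham 1 and FT 1) had a median of 21 other regions and those of replicate 2 (Sham 2 and FT 2) a median of 12. Windows of Sham 1 with FT 2 had a median of 21 and those of Sham 2 with FT 1 a median of 11. The pair that held Sham 1 thus gave the higher median in all 3 arrangements, and Sham 1 is also the venDG list most similar to other regions. The part of this library in the difference between FT and Sham windows was not tested. Windows active in dorDG alone made up 7.88% of those of replicate 2 and 0.225% of those of replicate 1.

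**Figure D5:**
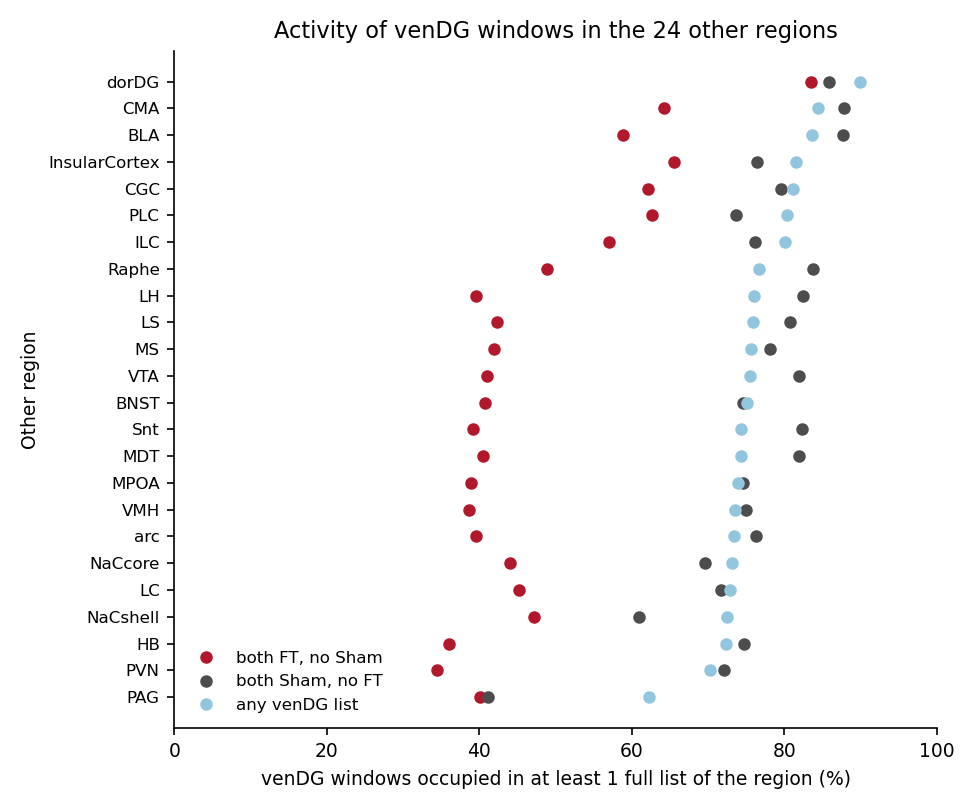
Share of venDG windows that at least 1 full list of each of the 24 other regions occupies (x axis, %; regions on the y axis as labelled), for windows in both FT and no Sham cut list, in both Sham and no FT cut list, and in any venDG cut list. FT windows have a median share of 42.1% over the regions, Sham windows 76.4% and all windows 75.3%, and the FT share is highest in dorDG.

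Across the other regions, FT lists occupied more of the changed windows of both directions than Sham lists did. In lists cut to at most 34769 peaks, the 45 other FT lists occupied a mean of 30.4% of the FT windows and the 45 other Sham lists 19.3%, a difference of 11.1 points. The cut did not make these lists equal in length. Of the other lists, 21 held fewer peaks than this, and most of these were Sham lists, down to 19378 peaks in replicate 2 of ILC. The part of list length in the differences between FT and Sham lists was not tested. For the Sham windows the means were 48.0% and 37.3%, a difference of 10.7 points in the same direction. For all venDG windows the difference was 11.6 points. Among the 20 other regions with 2 lists per treatment, the FT windows were more often occupied in FT lists in 20 and the Sham windows in 17, and all venDG windows in 19. The difference for FT windows was above that for all windows in 10 of these regions and below it in 10.

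The other 3 regions, in which Sham lists occupied more of the Sham windows, were dorDG, Raphe (FT minus Sham, -5.26 points) and InsularCortex (-0.22 points), and arc, which has only 1 Sham list, stood at -1.11 points. In dorDG the FT windows of venDG were occupied by 57.3% in FT 1, 58.9% in FT 2, 47.9% in Sham 1 and 47.2% in Sham 2. The Sham windows were occupied by 26.6%, 26.2%, 44.5% and 37.6% in the same order, while all venDG windows were occupied by 68.8 to 70.5% in the 4 lists. The FT and Sham lists of dorDG did not overlap in either set, with a difference of 10.5 points for the FT windows and -14.7 points for the Sham windows (exact permutation tests, two-sided, p = 0.33 for both, the smallest possible). Windows that separated venDG by other arrangements also moved with treatment in dorDG, by 11.1 points for replicate 2, -8.26 for replicate 1, -7.90 for Sham 1 with FT 2 and 5.46 for Sham 2 with FT 1. The sign was again negative for the pairs that held Sham 1 and positive for those that did not.

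Within dorDG itself, more windows separated the lists by treatment than by either other arrangement. Cut to the same number of peaks, they gave 5365 windows in both FT and no Sham list (6.15% of the occupied windows) and 2355 in both Sham and no FT list (2.7%), together 7720, against 1967 by replicate number and 1984 in the crossed arrangement. The log2 ratio was 1.97 there (exact permutation test, one-sided, p = 0.33) and -0.48 in venDG, and the difference between the regions was not tested. Of the venDG FT windows, 86 (7.11%) were also FT windows of dorDG, which is 1.6% of those, and 22 (1.82%) were Sham windows of dorDG. Of the venDG Sham windows, 147 (8.19%) were also Sham windows of dorDG, which is 6.24% of those, and 30 (1.67%) were FT windows of dorDG. By replicate number, shared windows of like direction made up 3.71% (replicate 1) and 1.41% (replicate 2) of the venDG windows, and those of unlike direction 1.35% and 1.08%. In the crossed arrangement, like direction made up 2.71% (Sham 1 with FT 2) and 1.05% (Sham 2 with FT 1), and unlike direction 1.58% and 1.35%. These shares are not comparable between arrangements, because the dorDG sets differ in size: the FT and Sham sets hold 6.15% and 2.7% of the occupied dorDG windows, the replicate sets 1.18% and 1.07%, and the crossed sets 1.22% and 1.05%. The bases also differ, since the shared windows are given as a percentage of venDG windows and the dorDG sets as a percentage of occupied dorDG windows. The share of all venDG windows that fall in each dorDG set was not computed, so these comparisons are rough. On these unlike bases, the 7.11% of FT windows shared in like direction is near the 6.15% of dorDG windows that are FT windows. The 8.19% of Sham windows is above the 2.7% that are Sham windows. Replicate 1 (3.71% against 1.18%) and Sham 1 with FT 2 (2.71% against 1.22%) also stood above their dorDG shares, so an excess in like direction was not particular to treatment. Replicate 2 (1.41% against 1.07%) and Sham 2 with FT 1 (1.05% against 1.05%) stood nearer to theirs. In unlike direction, FT windows (1.82% against 2.7%) and Sham windows (1.67% against 6.15%) stood below the dorDG shares. Replicate 1 (1.35% against 1.07%), Sham 1 with FT 2 (1.58% against 1.05%) and Sham 2 with FT 1 (1.35% against 1.22%) stood above theirs. Replicate 2 (1.08% against 1.18%) stood slightly below. Both regions were punched from the same brains of a replicate, as the pooling scheme implies, so these overlaps are not independent of the pools.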

How the data were processed

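H3K27ac ChIP-seq peak lists of micropunched venDG tissue were analysed, 2 Sham and 2 FT, beside the 90 lists of 24 other regions. Aligner (BWA) and genome build (rn5) are those of the submitters' processing notes. The authors ran the peak caller DFilter once per library. Program versions: not given in the sources used here. The deposited columns hold peak positions and centres, the highest filter score (maxScore), a -log10 p-value (4 to an upper limit of 200), a normalised tag count deposited as a score in whole numbers, and a false discovery rate in percent, which was 0 throughout. All widths came in steps of 100 bp. The study tested acetylation with DESeq2 on read counts, which the lists do not hold, so windows, widths and ranks were compared instead, and no counting interval for depth was computed.

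Full lists and lists cut by maxScore (ties by -log10 p, then tag count, then position) were used. Starts were read as counting from 0. Separating windows, ratios and Jaccard indices were tested exactly over the 3 arrangements of the 4 libraries. Elements were joined overlapping peaks, tested with limma 3.58.1 (lmFit, eBayes with trend; R 4.3.3) on log2(Norm-tag-count + 1). Other steps used Python 3.11.15, numpy 2.4.6 and pandas 2.3.3. Window counting and the limma fit were tested on simulated data. The limma check required recovery of planted changes only for unrounded values. Passing it therefore set no requirement for whole-number tag counts such as these. How well the fit finds changes in such counts is not given here. The named loci are the 8 longest per direction (ties by Norm-tag-count percentile, then position), and the named elements the 6 with the lowest limma p per direction. The members, lists and rules were chosen with earlier results of these data known. Replicate numbers pair libraries because the study processed Sham and FT samples of a replicate in parallel. The difference between replicates correlated between Sham and FT at r = 0.066 over 81011 windows of cut lists. Alternatives were window size, overlap, peak centres, stricter peaks, other cuts, other signal measures, the replicate block and leaving out each library. The input libraries were not used.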

Additional observations from a re-analysis of the deposited data

How the results depend on the processing

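No p of an exact test could pass 0.05, so for those results only the direction could change. In 83 of 138 alternatives over 13 results the value kept its direction or stayed within its interval (counts within 1.5 times). Leaving out each library in turn gave log2 ratios of -0.36 to 0.12 for peak number, -0.44 to 0.20 for covered length, -0.32 to 0.12 for median width, -0.88 to 0.30 for separating windows of full lists, -0.55 to 0.31 for those of cut lists, -1.14 to 1.46 for the balance of directions and -0.26 to 0.69 for rank shifts. The Jaccard difference ranged from -0.053 to 0.054. Only removal of FT 1 turned peak number, covered length, median width and the balance, and only removal of FT 2 turned the window ratios and the Jaccard difference. Rank shifts turned to -0.55 per kb of peak, -1.70 at 20 points and -0.76 by maxScore (chosen after seeing the data), and without Sham 1 (-0.15), Sham 2 (-0.26) or FT 2 (-0.06). The causes were not tested.

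The replicate block gave -0.12 for peak number, -0.12 for covered length, -0.10 for median width, -0.56 and -0.15 for windows of full and cut lists, 0.73 for rank shifts (exact permutation test, smallest p 0.5) and 0 limma calls, so the pairing changed no call. limma called 43 elements with median scaling, all higher in FT, where the median of all elements moved to 0.13 (log2), and 2, both higher in Sham, among elements above the median tag count. With a library left out it called 0 to 331 (0 without Sham 1, 200 without Sham 2, 68 without FT 1, 331 without FT 2), the lone library being assumed to vary like the other group.

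The share of FT windows active elsewhere was 100% with 5 kb windows, 97.8% by peak centres, 100% with 10000 peaks, 99.4% at equal covered length, 97.9% on full lists, 99.4% for at least 1 list and 96.9% with the other lists cut. For Sham windows it was 100% with 5 kb windows, stricter peaks or 10000 peaks, 99.2% on full lists and 99.9% for at least 1 list. Leaving out a library gave 91.3 to 99.4% for FT and 96.5 to 99.9% for Sham. The share of FT windows adjoining shared windows was 0% with 5 kb windows and peak centres, 15.8% with any overlap, 18.8% with stricter peaks, 12.1% with 10000 peaks, 20.8% at equal covered length and 32.2% on full lists. For Sham windows it was 0% with 5 kb windows and peak centres, 14.0% with any overlap, 12% with 10000 peaks and 23.4% on full lists. Without a library it ranged from 14.0 to 38.7% for FT, highest without FT 1, and from 20.3 to 50.3% for Sham, highest without FT 2.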

Other observations

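Sham windows outnumbered FT windows on 20 of the 21 chromosomes, with chromosome 12 as the exception (37 Sham and 41 FT windows). The whole set leaned the same way, with 1795 Sham and 1209 FT windows. Without FT 1 the balance of the whole set turned to 1.46 (log2 of FT over Sham). Chromosome 11 stood at the low end for FT and the high end for Sham, with 26 FT windows (1.10% of its occupied windows) and 72 Sham windows (3.06%). Chromosome 13 held the highest share of FT windows, at 2.22%, or 60 windows, beside 67 Sham windows. No test was made over chromosomes.

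When the lists were cut to an equal covered length of 51.0 Mb in place of an equal number of peaks, the asymmetries of the reference arrangements became smaller. Replicate number then gave 1847 windows of replicate 1 and 2264 of replicate 2, and the crossed pairs gave 1405 and 1259. The treatment gave 1061 FT windows and 1414 Sham windows, a log2 ratio of -0.41 that was the largest in size of the 3 arrangements (exact permutation test, two-sided, p = 0.33, the smallest possible), while the number of windows separating by treatment, 2475, stayed below the 4111 by replicate number and the 2664 of the crossed pairs. FT 1 then held the most windows found in no other venDG list, 6253, against 3870 for Sham 1, 2701 for Sham 2 and 2796 for FT 2, whereas with an equal number of peaks it held the fewest, 2899, against 4667, 3955 and 5483.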
